A study of Mus musculus with 6 samples.

Results

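The 8 microRNAs (miRNAs) described here, miR-191-5p, miR-425-5p, miR-423-5p, miR-423-3p, miR-103-3p, miR-107-3p, miR-484 and miR-320-3p, are often used to normalize assays of blood and of circulating vesicles. They were chosen by name from that use, and all 8 have a row among the 620 rows of the deposited table. The study sequenced small RNA carried in the extracellular vesicles of PBMCs (peripheral blood mononuclear cells, that is lymphocytes and monocytes) from mice whose genotype is given as WT. The 3 control libraries came from vesicles of untreated cells, and the 3 IS libraries from vesicles that the labels call IS-stimulated, an abbreviation they do not spell out. The labels used here give no strain, age, dose or exposure time. They also do not state the origin of the replicates (animal, culture or tube), so each p-value covers the spread among these libraries only, and that spread may be technical.

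Extracellular vesicles are membrane-bound particles that carry RNA out of cells. Their yield differs from one preparation to the next, so a miRNA is usually reported relative to a reference that is presumed to stay constant. A useful reference has a level well above the detection limit, a low spread between samples and no response to the treatment. A pair of references whose ratio stays constant is often preferred to a single one, because the ratio does not depend on the amount of RNA loaded.

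The members share little sequence apart from one pair, which bears on whether their reads can be told apart. The mature sequences of 7 of the 8 were matched by name in RefSeq (GRCm38.p6). They are printed 5′ to 3′, with the seed (bases 2 to 8, which pair with target mRNAs) in capitals.
miR-191-5p: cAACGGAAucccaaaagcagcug
miR-425-5p: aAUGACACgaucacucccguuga
miR-423-5p: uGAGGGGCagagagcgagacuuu
miR-423-3p: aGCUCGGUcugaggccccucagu
miR-103-3p: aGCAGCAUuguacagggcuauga
miR-107-3p: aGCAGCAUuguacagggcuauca
miR-484: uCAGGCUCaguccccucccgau
Only miR-103-3p and miR-107-3p share a seed among these 7. They differ by G22C, counted from the 5′ end with the base of miR-103-3p first, so their first 21 bases are identical. A read that ends before base 22 fits both, and no source used here gives how the authors assigned such reads. The counts of this pair are therefore uncertain against each other. No other mature miRNA in the RefSeq table shares a run of 16 bases, on either strand, with any of the 7.

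The hairpins lie in different kinds of transcripts (GENCODE M21 on GRCm38, which need not be the authors' build). Mir191 (chromosome 9, 108568319 to 108568392, plus strand) and Mir425 (108568777 to 108568861, plus strand) lie 384 bases apart in an exon of the noncoding RNA 4833445I07Rik, so both can come from 1 primary transcript. Mir423 (chromosome 11, 77078064 to 77078172, minus strand) lies in an intron of Nsrp1 and gives both miR-423-5p and miR-423-3p. The introns of pantothenate kinase genes, which encode the first enzyme of coenzyme A synthesis, hold Mir103-1 (Pank3, chromosome 11, 35782396 to 35782481, plus strand), Mir103-2 (Pank2, chromosome 2, 131288052 to 131288137, plus strand) and Mir107 (Pank1, chromosome 19, 34820687 to 34820773, minus strand). Mir484 (chromosome 16, 14159626 to 14159692, plus strand) overlaps an exon of Marf1 on the opposite strand. Mir320 (chromosome 14, 70443510 to 70443591, plus strand) overlaps no other annotated gene. Mir484 and Mir320 are known for precursors that arise at a transcription start and skip the usual first cut by Drosha.

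Library totals ran from 125731 to 435468 counts, and control 3 and IS 2 were the deepest (435468 and 317323 counts). One count was therefore worth 2.30 to 7.95 CPM (counts per 1000000 counts of the library). Of the 7 leukocyte miRNAs listed as markers, 6 were above 0 in every library and miR-155-5p was at 0 in IS 1. Their summed share of the counts was 0.998 to 2.63% in control libraries and 1.10 to 3.29% in IS libraries. The 5 red cell markers were above 0 in every library and summed to 9.36 to 18.6% (control) and 12.1 to 22.2% (IS), with the reads of miR-486a, listed under several names, counted once. The log2 ratio of miR-451a to miR-23a-3p, used as a sign of red cell RNA, was 5.54 to 6.41 in control and 6.05 to 6.20 in IS. Such bulk samples cannot tell fewer vesicles of a type from less RNA per vesicle.

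The references spanned a wide range of levels. The 7 with a matched sequence are 22 or 23 bases long, so their CPM are set side by side without a length correction. How evenly library preparation recovers different miRNAs was not measured, so these levels rank reads and need not rank molecules. The most abundant was miR-423-5p, a G-rich miRNA with 10 G in 23 bases. Its level was 20119, 30374 and 8175 CPM in control 1, 2 and 3 and 22949, 9076 and 14714 CPM in IS 1, 2 and 3. Control 3 and IS 2 were its lowest libraries, and the groups overlapped. The capped-precursor miRNA miR-320-3p had 7587, 5084 and 5860 CPM in control 1 to 3 and 9276, 8307 and 4176 CPM in IS 1 to 3. IS held both its highest and its lowest value.

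The cluster members came next. For miR-191-5p, abundant in blood cells, the levels were 2637, 4077 and 1741 CPM in control 1 to 3 and 2520.1, 2174 and 3038 CPM in IS 1 to 3. Its IS values all lay inside the control range. Its neighbour miR-425-5p had 1465, 2576 and 625 CPM in control and 1475, 542 and 1376 CPM in IS. Again control 3 and IS 2 were lowest, and control 2 was highest for both members. The other arm of the miR-423 hairpin, miR-423-3p, had 610.4, 4115 and 1621 CPM in control and 972, 2096 and 1790 CPM in IS. Control 2 stood highest and control 1 lowest, so the IS values lay inside the control range.

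The pantothenate kinase miRNAs differed from each other by more than their spread. The level of miR-103-3p was 869, 1394 and 1302 CPM in control 1 to 3 and 871, 1229 and 1869 CPM in IS 1 to 3. Its IS 1 and control 1 values were the lowest and IS 3 the highest. For miR-107-3p the levels were 129, 191 and 448 CPM in control and 107.2, 504 and 366 CPM in IS, from 16 to 195 counts a library. Here control 3 and IS 2 were the highest libraries, the opposite of miR-425-5p and miR-423-5p. The least abundant reference was miR-484, at 85.1, 89.3 and 71.2 CPM in control and 73.7, 107.1 and 87.5 CPM in IS. It rested on 11 to 34 counts a library and 131 counts in all.

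**Figure D1:**
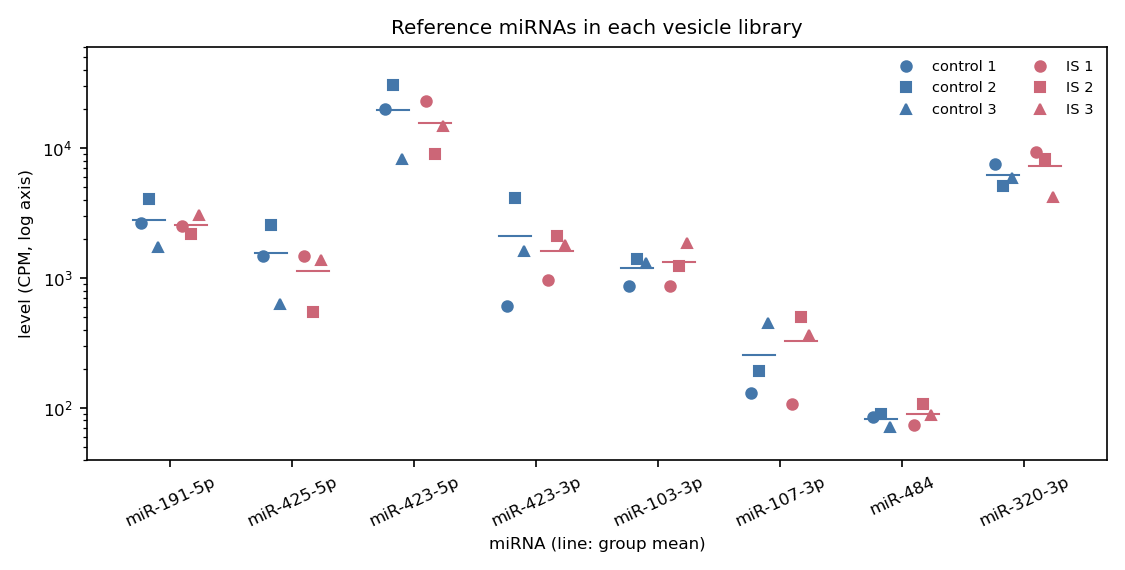
Level of the 8 reference miRNAs in CPM on a log axis, 1 point per library (blue control, red IS, symbol by replicate) with a line at each group mean. The groups overlap for all 8, and control 3 and IS 2 are the lowest points for miR-423-5p and miR-425-5p and the highest for miR-107-3p.

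By mean level the order was miR-423-5p (17568 CPM), miR-320-3p (6715), miR-191-5p (2698), miR-423-3p (1867), miR-425-5p (1343), miR-103-3p (1256), miR-107-3p (291) and miR-484 (85.7). The steps from miR-423-5p to miR-320-3p, from miR-320-3p to miR-191-5p, from miR-103-3p to miR-107-3p and from miR-107-3p to miR-484 held in 6 of 6 libraries. The middle of the order was not resolved. miR-191-5p exceeded miR-423-3p in 5 libraries, miR-423-3p exceeded miR-425-5p in 4, and miR-425-5p exceeded miR-103-3p in 3, each with a mean log2 difference smaller than its SD. Summed over the 8, the share of all counts was 3.35, 4.79 and 1.98% for control 1 to 3 and 3.82, 2.40 and 2.74% for IS 1 to 3. Thus their summed share was itself lowest in the 2 deepest libraries. In every library miR-423-5p was the largest part of the sum, and it was lowest in these 2, whereas miR-107-3p was highest there. The sum therefore need not describe the other members.

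The opposite arms of the hairpins had few counts or no row in the table, with miR-425-3p the most abundant of them. miR-191-3p was seen with 2 counts, both of them from IS 2, and at 0 elsewhere. miR-103-2-5p had 2 counts in control 3 and 4 in IS 2. miR-425-3p reached 20 counts in control 2 and 13 in IS 3, with 5 in control 3, 2 in IS 2 and 0 in the rest. In IS 3 that was above the 11 counts of miR-484. The table has no row named miR-103-1-5p, miR-107-5p or miR-320-5p. A count of 0 allows up to 6.89 to 23.9 CPM (3 counts), depending on the library, for counting error only.

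The coefficient of variation (CV, the SD divided by the mean of CPM) showed how far each reference moved between libraries. Over all 6 libraries it was lowest for miR-484 (15.05%), and then for miR-320-3p (29.6%), miR-103-3p (29.7%) and miR-191-5p (29.8%). It was higher for miR-423-5p (48.8%), miR-425-5p (54.8%), miR-107-3p (58.6%) and miR-423-3p (65.8%). The median was 39.3% over the 8, 51.0% over the 155 tested miRNAs that were at least as abundant as miR-484, and 59.0% over all 206 tested. Of the 8, 7 lay below the latter median, where 103 of the 206 do by definition.

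The low CV of miR-484 was below what counting alone gives. With its few reads, Poisson counting error would produce a CV of 23.3%, against 1.68% for miR-423-5p, 2.61% for miR-320-3p, 4.25% for miR-191-5p and 6.23% for miR-103-3p. The spread of miR-484 between vesicle preparations was therefore not measurable at this depth. For the other 7 the observed CV was above the counting error. Which reference varied least also depended on the scaling. With TMM factors (trimmed mean of M values, which align the bulk of miRNAs between libraries), the CV of miR-103-3p was 14.9%, that of miR-484 was 21.4% and that of miR-320-3p was 42.9%. Rows that repeat the same reads under another name can also be left out of the library totals. The CV was then 15.9% for miR-484, 25.6% for miR-191-5p, 27.1% for miR-103-3p and 32.5% for miR-320-3p. The order of miR-320-3p, miR-103-3p and miR-191-5p was thus reversed.

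Within groups the CV was 41.8% in control and 16.9% in IS for miR-191-5p, and 85.3% and 35.9% for miR-423-3p. Control 2 carried the high value in both, and without it the CV of miR-423-3p over the remaining 5 libraries was 43.0%. The order was the other way for miR-103-3p (23.6% in control, 38.2% in IS), miR-320-3p (20.7 and 37.3%) and miR-484 (11.6 and 18.8%). For miR-425-5p it was 62.9 and 45.3%, for miR-423-5p 56.8 and 44.8%, and for miR-107-3p 65.9 and 61.9%. In all, 5 of the 8 had the lower CV in IS, as did 98 of the 206 tested.

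The means of the groups differed less than single libraries within a group, for the references as for miRNAs in general. The CV of the 2 group means was 6.28% for miR-484, 6.31% for miR-191-5p, 7.58% for miR-103-3p and 11.3% for miR-320-3p. It was 16.01% for miR-423-5p, 16.9% for miR-107-3p, 18.8% for miR-423-3p and 22.3% for miR-425-5p. Each of these was below the CV within either group for the same miRNA, although a mean of 3 libraries also varies less than single libraries do. The median CV of the group means was 13.7% over the 8 and 14.5% over all 206 tested, whose median CV within groups was 50.9% in control and 57.7% in IS.

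**Figure D2:**
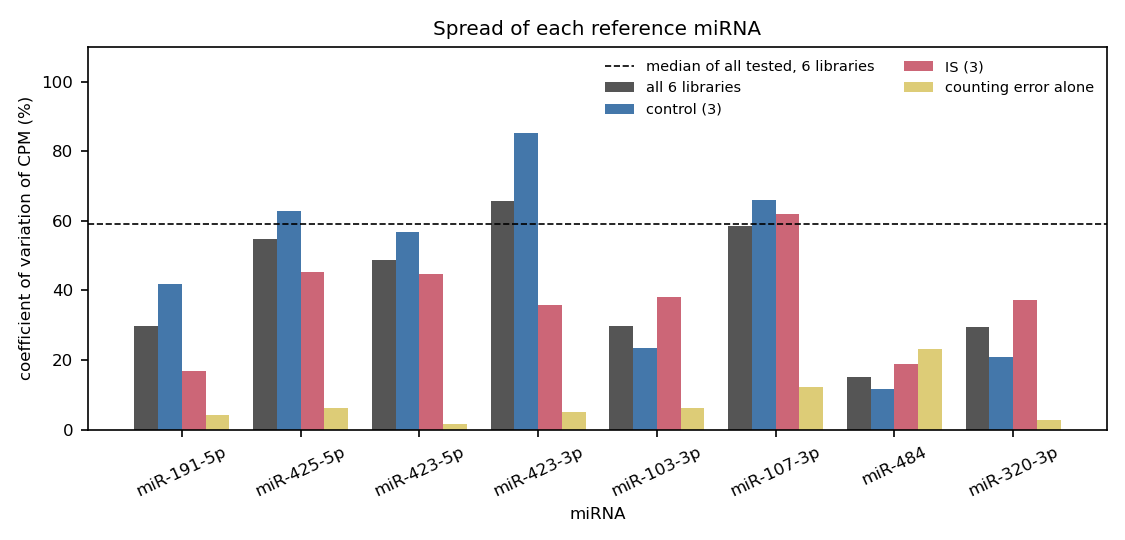
CV of CPM in percent for each reference miRNA over all 6 libraries, within the 3 control and within the 3 IS libraries, beside the CV that counting error alone gives. The dashed line is the median CV over 6 libraries of all 206 tested miRNAs (59.0%), and only for miR-484 does counting error (23.3%) exceed the observed CV (15.05%).

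Whether any reference responded to IS was tested with the edgeR quasi-likelihood test on the counts of all 206 miRNAs that passed the filter, all 8 references among them. None of the 8 passed an adjusted p of 0.05, where 0% of all tested miRNAs did. None had an unadjusted p under 0.05, where 1.46% of the tested miRNAs did. The latter include repeated rows of the same reads, so that share counts 1 result under different names. For none of the 8 did the groups of 3 fail to overlap, where 1.46% of the tested did. DESeq2, run on all 620 rows without the filter, also called 0 miRNAs, with 14 of the 620 at an unadjusted p under 0.05.

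The intervals of these differences were wide. For miR-191-5p the mean was 2818 ± 1179 CPM for control and 2578 ± 435 CPM for IS (± SD, n = 3 libraries each). The log2 fold change, IS minus control, was -0.12 (95% confidence interval -1.20 to 0.96, adjusted p = 0.996, edgeR). For miR-103-3p it was 0.15 (-0.87 to 1.16), with control at 1189 ± 280.3 CPM and IS at 1323 ± 505 CPM. For miR-484 it was 0.15 (-1.62 to 1.92), and for miR-320-3p 0.29 (-0.92 to 1.504). The lower-in-IS side held miR-423-5p at -0.28 (-1.64 to 1.09), miR-423-3p at -0.30 (-1.69 to 1.08) and miR-425-5p at -0.44 (-1.85 to 0.97). The largest positive value was that of miR-107-3p at 0.39 (-1.15 to 1.94). A change of about 1 log2 unit in either direction thus lay inside or near the edge of each interval, so these data do not show that any reference stayed constant. Over the 206 tested miRNAs the median difference was 0.02 on the same scale.

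The ratio of the cluster mates miR-191-5p and miR-425-5p was not constant. It was 1.801, 1.58 and 2.79 in control 1, 2 and 3 and 1.71, 4.01 and 2.21 in IS 1, 2 and 3. Control 3 and IS 2 had the highest ratios, and the groups overlapped. The exact (Clopper-Pearson) 95% interval was 2.42 to 3.21 for control 3 and 3.39 to 4.77 for IS 2, against 1.43 to 1.75 for control 2. The ratio thus varied 2.53-fold between libraries, and the chi-square per degree of freedom over the 6 libraries was 23.6. Since reads carry no molecular identifiers, these intervals cover counting error only.

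IS did not separate from control in this ratio. The mean log2 ratio was 0.995 ± 0.43 in control and 1.30 ± 0.63 in IS (SD, n = 3 per group). The difference of 0.31 (SE 0.44) had an exact two-sided permutation p = 0.6, where 3 against 3 libraries cannot go below 0.1. Without IS 2 it was -0.04. The SD of the log2 ratio over the 6 libraries was 0.51, and 7.10% of the 10440 pairs among miRNAs at least as abundant as miR-484 (repeated rows left out) had a lower SD.

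The pair that shares a seed and the arms of 1 hairpin varied more. The ratio of miR-103-3p to miR-107-3p was 6.71, 7.29 and 2.91 for control 1 to 3 and 8.13, 2.44 and 5.11 for IS 1 to 3, lowest in control 3 and IS 2. The arms of the miR-423 hairpin had ratios (5p to 3p) of 33.0, 7.38 and 5.04 in control and 23.6, 4.33 and 8.22 in IS. Control 1 and IS 1 stood highest, and control 3 and IS 2 lowest. Control 1 and IS 1 also had the highest share of the liver marker miR-122-5p (11.3 and 10.7% of the counts, against 2.35 to 4.59% in the other 4) and the lowest levels of miR-103-3p, miR-107-3p and miR-423-3p. The liver list held only that 1 miRNA. In contrast, miR-192-5p, a miRNA of liver and gut, was lowest in control 1 and IS 1 (466 and 503 CPM, against 577 to 978 CPM in the other 4). The part of liver RNA in the ratios and levels of the references was not tested. The arm ratio varied 7.59-fold and that of miR-103-3p to miR-107-3p 3.25-fold. The SD of the log2 ratio was 0.72 for miR-103-3p to miR-107-3p, with 18.6% of the background pairs lower. It was 1.199 for the arms, with 55.1% lower, so the arms of 1 hairpin lay near the middle of the background pairs.

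Neither ratio separated the groups. The log2 difference, IS minus control, was -0.17 (SE 0.65, exact permutation p = 0.7) for miR-103-3p to miR-107-3p and -0.18 (SE 1.09, exact permutation p = 0.8) for the arms of miR-423. Adjusted over the 3 ratios tested, the Benjamini-Hochberg value was 0.8 for each (exact permutation tests). Without IS 2 these differences were 0.29 and 0.38.

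**Figure D3:**
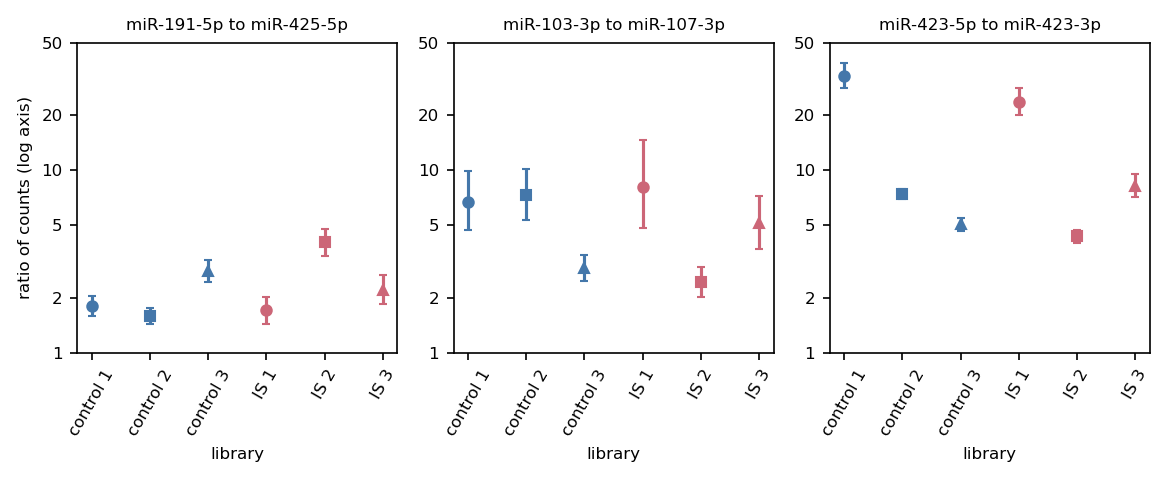
Ratio of counts (log axis) in each library for the cluster mates, the pantothenate kinase miRNAs and the arms of miR-423, blue for control and red for IS, with exact 95% counting intervals. Control 3 and IS 2 have the highest ratio of miR-191-5p to miR-425-5p (2.79 and 4.01) and the lowest ratio in the other panels.

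The same libraries, control 3 and IS 2, 1 from each group, thus lay at an extreme of all 3 ratios. For the arms of miR-423, control 1 and IS 1 were further from the rest (33.0 and 23.6, against 4.33 to 8.22 in the other 4). Control 3 and IS 2 were both below the other 4 libraries for 3 references (miR-191-5p, miR-425-5p and miR-423-5p) and above them for 1 (miR-107-3p). Over all tested miRNAs 40.8% had both of them on 1 side of the other 4, so 4 of 8 is near the background. They were the deepest libraries. They also had the highest share of leukocyte markers (2.63 and 3.29%, against 0.998 to 1.29% in the other 4) and of red cell markers (18.6 and 22.2%, against 9.36 to 14.9%). Of the leukocyte markers, miR-142a-3p, miR-142a-5p, miR-150-5p, miR-155-5p and miR-146a-5p were highest in these libraries. Most of that share was miR-142a-5p (20128 and 23909 CPM). In contrast, miR-223-3p was lowest of all in IS 2 (18.9 CPM) and miR-342-3p lowest of all in control 3 (89.6 CPM). The log2 ratio of miR-451a to miR-23a-3p did not set these libraries apart (5.93 and 6.19, against 5.54 to 6.41 in the other 4). In control 3 and IS 2 the summed share of the 3 platelet and endothelium markers, all above 0 in every library, was the lowest (0.912 and 0.485%, against 1.351 to 2.67%). That sum was mostly miR-126a-3p (8928 and 4774 CPM). By contrast, miR-126a-5p was second highest in control 3 (126 CPM). For miR-223-3p, which is in both lists, control 3 (68.9 CPM) exceeded control 1 (29.6 CPM). Control 3 and IS 2 also had the most miRNAs with 1 or more counts (513 and 441, against 276 to 301). The part of depth and of RNA from these cell types in the ratios was not tested.

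Of the 28 pairs of references, the most constant ratio joined miRNAs from different chromosomes. The ratio of miR-425-5p to miR-423-5p had an SD of 0.24 on the log2 scale and varied 1.57-fold over the 6 libraries. It was picked as the lowest of the 28, and it had the lowest SD of them with any 1 library left out. Next came miR-191-5p with miR-484 (SD 0.40) and miR-103-3p with miR-484 (0.42), where counting error alone gives 0.35 for each. Of the 28 pairs, 5 (17.9%) had an SD under 0.5, against 6.65% of the background pairs, and the median was 0.89, against 1.13. The 28 pairs share their 8 members and are not independent. The least constant pairs were miR-107-3p with miR-425-5p (SD 1.66, 12.4-fold between the extremes) and miR-107-3p with miR-423-5p (1.63, 11.6-fold).

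A pairwise stability value, the mean SD of a reference's log2 ratio to the other 7, put miR-191-5p first (0.67). It was followed by miR-484 (0.68), miR-103-3p (0.73), miR-423-5p (0.88), miR-320-3p (0.92), miR-425-5p (0.93), miR-423-3p (1.01) and miR-107-3p (1.18). With 1 library left out at a time, miR-191-5p was first in 5 cases and miR-484 in 1, while miR-107-3p was last in all 6. The gap between miR-191-5p and miR-484 was smaller than the change from leaving out a library (0.63 to 0.71 for miR-191-5p). No pair ratio differed between groups by more than 0.65 on the log2 scale.

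**Figure D4:**
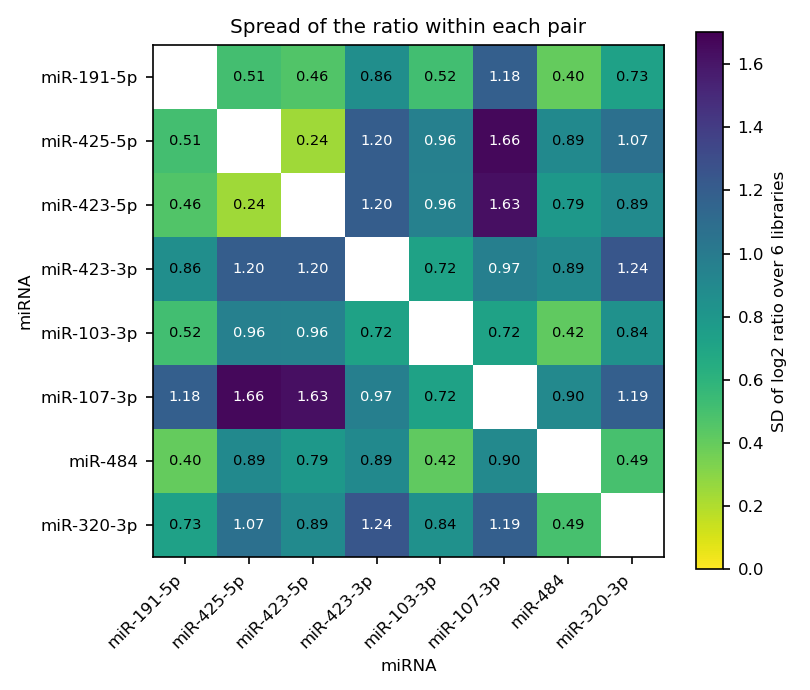
SD over the 6 libraries of the log2 ratio of each pair of reference miRNAs, printed in the cell and given by colour (yellow constant, dark variable). The lowest value is that of miR-425-5p with miR-423-5p (0.24) and the highest those of miR-107-3p with miR-425-5p and miR-423-5p (1.66 and 1.63).

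The pair of most constant ratio left the largest spread when it was used as a normalizer. Each pair was used as a scale by taking the mean of its log2 counts, and the median within-group SD of the other tested miRNAs was computed on that scale. It was 0.95 with library totals, 0.91 with TMM factors, 0.887 with RLE factors (median of ratios, the DESeq2 size factors) and 0.92 with the geometric mean of the 8. On miR-425-5p with miR-423-5p, the most constant pair, it was 1.29, the highest of the 28. That pair itself ranged 3.98-fold relative to the library total, with both members low in control 3 and IS 2. The cluster mates miR-191-5p and miR-425-5p gave 1.15, the rank of 26 of 28, and ranged 3.11-fold.

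The pairs that left the lowest spread were miR-191-5p with miR-103-3p (0.887, the value of RLE factors), miR-425-5p with miR-107-3p (0.909) and miR-423-5p with miR-107-3p (0.912). The latter 2 were the least constant ratios, with members that deviated in opposite directions in control 3 and IS 2. miR-103-3p with miR-320-3p stayed closest to the library total (1.24-fold range) and gave 0.953. Among single references the value ran from 0.947 for miR-103-3p to 1.32 for miR-107-3p. With 1 library left out, the most constant pair gave 1.08 to 1.39 and miR-191-5p with miR-103-3p 0.819 to 0.949. These are the highest and the lowest of the 28 pairs on this value, so the gap between them is a description. The range with library totals was 0.868 to 0.952 and overlapped that of miR-191-5p with miR-103-3p.

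**Figure D5:**
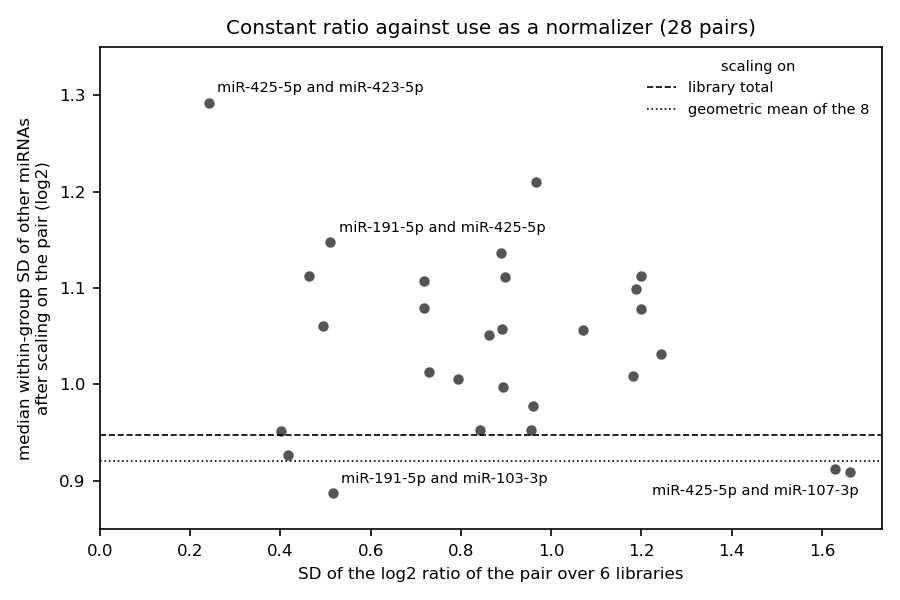
Each point is 1 of the 28 pairs, with the SD of its log2 ratio on the horizontal axis and the median within-group SD of the other tested miRNAs after scaling on the pair on the vertical axis (both log2). Lines mark scaling on library totals (0.95) and on the geometric mean of the 8 (0.92), and the pair of most constant ratio, miR-425-5p with miR-423-5p, lies highest at 1.29.

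The choice of reference moved the value of a target miRNA. The series title names miR-744-5p, which had 99.9, 1696 and 209 CPM in control 1 to 3 and 127, 110.3 and 223 CPM in IS 1 to 3. Control 2 was far above the other 5 libraries. Its mean log2 difference, IS minus control, was -0.79 relative to miR-425-5p, -0.92 to miR-423-5p, -1.10 to miR-191-5p and -1.10 to miR-423-3p. It was -1.27 relative to miR-103-3p, -1.29 to miR-484, -1.32 to miR-320-3p and -1.44 to miR-107-3p, and -1.15 with library totals. The edgeR quasi-likelihood fit, which models counts rather than log values, gave -2.06 (95% confidence interval -4.10 to -0.01, adjusted p = 0.996), outside the range over references. Without control 2 all 8 values relative to a reference lay between -0.60 (miR-423-3p) and -0.01 (miR-320-3p). The within-group SD of these log2 values was 0.81 to 1.86, which is larger than the range over references. Scaling on a single reference moved the median difference of the other tested miRNAs to between -0.28 (miR-107-3p) and 0.37 (miR-425-5p), against 0.01 with library totals.

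Outside the 8, the tested miRNAs whose log2 ratio to the geometric mean of the 8 varied least were let-7b-5p (SD 0.28), miR-7a-5p (0.28) and miR-192-5p (0.29) over the 6 libraries. Set against the geometric mean of the other 7, that SD was 0.28 for miR-191-5p, 0.29 for miR-484 and 1.10 for miR-107-3p. Of those at least as abundant as miR-484, the lowest CV outside the 8 belonged to miR-25-3p (10.8%), miR-101a-3p (17.0%) and let-7i-5p (18.3%). miR-25-3p, from the miR-106b cluster, had 3799, 2980.02 and 3566 CPM in control and 4068, 3640 and 3269 CPM in IS. All 6 values lay within 2980.02 and 4068 CPM, and with library totals its CV was the lowest of all 206 tested. Its CV with TMM or RLE factors is not given here, and among the 8 the order changed with the scaling.

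Of 26 further miRNAs listed as references in blood or vesicle assays, 25 were tested. Their median CV was 45.9%, from 10.8% for miR-25-3p to 93.7% for miR-222-3p, and 18 of the 25 lay below the median of all tested. Widely used miR-16-5p had a CV of 45.9%, let-7a-5p one of 69.3% and miR-93-5p one of 46.5%. Whether these differ in spread from the 8 was not tested.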

How the data were processed

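Per the labels' protocols, the exoRNeasy Maxi kit was used for vesicle RNA and a NEBNext kit for small RNA libraries. Per the submitters' processing notes, CASAVA 1.8 and Bowtie were among the tools. The sources used here name no build, filter or counting rule. The authors deposited a read count for each of 620 miRNAs in each of 6 libraries, per the file headers. The second value, headed TPM in the deposited table, equals the count over the library total times 1000000 and is called CPM here.

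The edgeR quasi-likelihood test was run on counts with TMM factors, filterByExpr (minimum count 10, minimum total 15) and group as the only term, with Benjamini-Hochberg adjustment over 206 miRNAs. Ratios used a pseudocount of 0.5 counts and exact permutation tests. The deepest library had 435468 counts and the shallowest 125731. Rows with the same reads under several names (12 surplus rows, none a reference miRNA) took 10.0 to 19.0% of the totals and were kept, except where stated. Alternatives were RLE factors, library totals, scaling on the 8 references, other filters, DESeq2, limma on log2 of the deposited TPM plus 1 or 0.5, a replicate block, thinning, other pseudocounts and each library left out.

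Named in the text are the 8 references, the opposite arms of their hairpins, the 3 tested miRNAs with the lowest SD of the log2 ratio to the geometric mean of the 8, the 3 with the lowest CV among those at least as abundant as the least abundant reference, miR-744-5p of the title, and the miR-451a and miR-23a-3p pair. Also named, outside these rules, are some listed cell type markers and, among the further listed references, miR-16-5p, let-7a-5p, miR-93-5p and miR-222-3p. The members, lists and rules were chosen with earlier results of these data known. Scripts were checked on simulated data. Software was Python 3.11.15 and, in R 4.3.3, DESeq2 1.42.0, edgeR 4.0.16 and limma 3.58.1.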

Additional observations from a re-analysis of the deposited data

How the results depend on the processing

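With every alternative run, replicate block, DESeq2 and limma included, 0 miRNAs passed an adjusted p of 0.05 (edgeR: 3 at an unadjusted p under 0.05). None of the 8 references passed in any of them. Their log2 fold changes kept their sign under each scaling, filter and tool, but with 1 library left out the range was -1.02 to 0.33 for miR-423-3p, -0.32 to 0.16 for miR-103-3p, -0.23 to 0.98 for miR-107-3p, -0.092 to 0.057 for miR-484 and -0.19 to 0.29 for miR-320-3p. It was -1.01 to -0.05 for miR-423-5p, -1.04 to -0.16 for miR-425-5p and -0.48 to -0.08 for miR-191-5p, with no change of sign. These refits also redo the filter and the scaling, and the cause was not tested. The difference of the log2 ratio between groups, with 1 library left out, ranged from -0.039 to 0.58 for miR-191-5p to miR-425-5p, from -0.59 to 0.29 for miR-103-3p to miR-107-3p and from -0.84 to 0.63 for the arms of miR-423. The median CV of the 8 was 47.7% with TMM factors and 46.2% with RLE factors, against 39.3% with library totals, and the cause was not tested.

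No source used here says whether replicate numbers pair the libraries. Deviations of same-numbered libraries correlated at 0.33, -0.36 and -0.11 (replicates 1, 2 and 3) over the tested miRNAs. The highest correlation of each control library with an IS library of another number was -0.16, 0.30 and 0.55. So few values cannot decide whether the libraries were paired. The replicate block called 0 miRNAs. It cannot change the difference of a ratio (0.31, -0.17 and -0.18), because each number has 1 library in each group, so the unchanged values say nothing about pairing. Alternatives for the CV of single references and for the spread after scaling on a pair were chosen after seeing the data. Depth limits miR-484 and miR-107-3p most, with as few as 11 and 16 counts in a library.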
